A study of Mus musculus with 5 samples.

Results

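The cells described here are CD8 T cells carrying transcripts of Ccl5 or Nkg7, the pair of genes used to select effector and memory CD8 T cells in mouse mammary tumours. A cell barcode was taken when it held at least 1500 UMIs (unique molecular identifiers, each standing for 1 captured transcript) and the keratins Krt8, Krt18 and Krt19 with Epcam made up less than 0.3% of them. It also needed at least 2 UMIs over Cd3e, Cd3d and Cd3g, at least 2 over Cd8a and Cd8b1, at least 2 over Ccl5 and Nkg7, and no UMI of Cd4, Foxp3 or Cd79a. These conditions kept 305 of the 24022 barcodes in the series, of which 45 came from the library called Progesterone 1 and 253 from Placebo 1. The other libraries gave 1 cell in Progesterone 2, 2 cells in Progesterone 3 and 4 cells in Placebo 2. The cells were thus selected on measured levels of these genes, whose values below are descriptions.

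The tumours grew from SSM2, a hormone receptor-positive mouse mammary tumour line, after 100000 cells had been placed into a left mammary gland of mice aged 10 to 12 weeks. Mice of the progesterone group carried a subcutaneous pellet of progesterone (60 mg, released over 60 days), and mice of the placebo group carried a placebo pellet. Tumours were taken 28 to 62 days later, dissociated with enzymes, freed of red cells by lysis and profiled by droplet-based 3′ single-cell RNA sequencing, in 3 progesterone and 2 placebo libraries over 2 batches named in the titles. Batch 1 held Progesterone 1 and Placebo 1, and batch 2 held Progesterone 2, Progesterone 3 and Placebo 2. The labels used here state neither the host strain nor whether libraries came from separate mice, and the deposited tables of Progesterone 2 and Progesterone 3 carry the same identifier with an L in the name of 1 and an R in that of the other. Since 298 of the 305 cells lay in batch 1, with 1 library a treatment, treatments were compared there without a test. Intervals in the text cover counting error at the 95% level and say nothing of the spread between mice. Those of ratios also say nothing of the spread between cells.

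CD8 T cells recognise peptides on class I molecules and, after priming, give rise to effector cells that kill through perforin and granzymes and secrete interferon gamma, and to memory cells that can respond again. Naive and central memory cells carry Ccr7, the chemokine receptor that brings them into lymph nodes, with the transcription factors Lef1 and Tcf7. Effector and memory cells carry Ccl5, a chemokine that memory CD8 T cells store as transcript, and Nkg7, a membrane protein of cytotoxic granules. T-bet, encoded by Tbx21, and its relative Eomes are T-box factors that with Runx3 direct this programme.

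Promoters of 3 genes are shown because Nkg7 brought nearly all of the cells into the selection, Gzmk is a marker of the label, and Xcl1 was among the 12 genes farthest above 2-fold. Each run covers the 250 bases before and 50 bases after the transcription start in RefSeq, build GRCm38.p6, 5′ to 3′ on the strand of the gene. The Nkg7 window lies at chr7:43436888-43437187 on the plus strand, the Gzmk window at chr13:113180916-113181215 on the minus strand and the Xcl1 window at chr1:164935473-164935772 on the minus strand. Capitals mark TCACAC, the core of a T-box site, or TGTGGT, the core of a RUNX site, or the reverse complement of either; the pair of motifs do not overlap here.
Nkg7: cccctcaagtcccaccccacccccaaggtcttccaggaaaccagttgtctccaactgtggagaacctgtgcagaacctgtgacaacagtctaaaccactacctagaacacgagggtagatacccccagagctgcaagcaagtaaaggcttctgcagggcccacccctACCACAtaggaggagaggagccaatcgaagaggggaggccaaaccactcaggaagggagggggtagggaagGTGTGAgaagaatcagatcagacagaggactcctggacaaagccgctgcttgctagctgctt
Gzmk: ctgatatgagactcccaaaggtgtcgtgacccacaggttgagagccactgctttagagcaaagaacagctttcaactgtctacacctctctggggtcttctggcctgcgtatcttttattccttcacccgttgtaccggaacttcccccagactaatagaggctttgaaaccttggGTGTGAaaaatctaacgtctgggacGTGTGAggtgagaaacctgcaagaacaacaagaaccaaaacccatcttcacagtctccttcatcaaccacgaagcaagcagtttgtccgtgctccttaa
Xcl1: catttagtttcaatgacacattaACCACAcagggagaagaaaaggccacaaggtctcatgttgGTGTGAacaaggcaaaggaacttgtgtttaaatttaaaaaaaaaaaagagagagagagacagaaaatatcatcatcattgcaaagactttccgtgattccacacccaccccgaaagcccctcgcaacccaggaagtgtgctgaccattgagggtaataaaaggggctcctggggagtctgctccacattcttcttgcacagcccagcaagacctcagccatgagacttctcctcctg
The Nkg7 and Xcl1 windows each held 1 T-box core and 1 RUNX core, and the Gzmk window held 2 T-box cores. Of 27025 promoter windows of this length, 14.4% held the T-box core and 16.9% held the RUNX core on either strand, so these matches are letters in a window and no evidence of binding. The 12 genes farthest above 2-fold had 7 windows in the table, of which 2 held each core.

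The selected cells made up 67.2% of CD8 T cells in Progesterone 1 (45 of 67 cells, exact Clopper-Pearson interval 54.6 to 78.2%) and 34.5% in Placebo 1 (253 of 733 cells, 31.1 to 38.1%). CD8 T cells here are the cells that met every condition other than the one on Ccl5 and Nkg7. In batch 2 they made up 20% of CD8 T cells in Progesterone 2 (1 of 5 cells), 100% in Progesterone 3 (2 of 2 cells) and 23.5% in Placebo 2 (4 of 17 cells). Averaged over batches, the share was 34.6 percentage points higher in progesterone libraries, and an exact two-sided permutation of treatment within batches gave p = 0.5, where 6 arrangements allow no p below 0.167. The test thus did not show a difference between treatments, and the value was 14.6 points without Progesterone 3 and 54.6 points without Progesterone 2. As a share of all cells that passed the CD3 condition, the selected cells were 11.0% in Progesterone 1 (of 410), against 6.12% in Placebo 1 (of 4136). In batch 2 this share was 2.78% in Progesterone 2 (of 36) and 3.77% in Progesterone 3 (of 53), against 3.25% in Placebo 2 (of 123), so the progesterone libraries lay on either side of the placebo library.

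**Figure D1:**
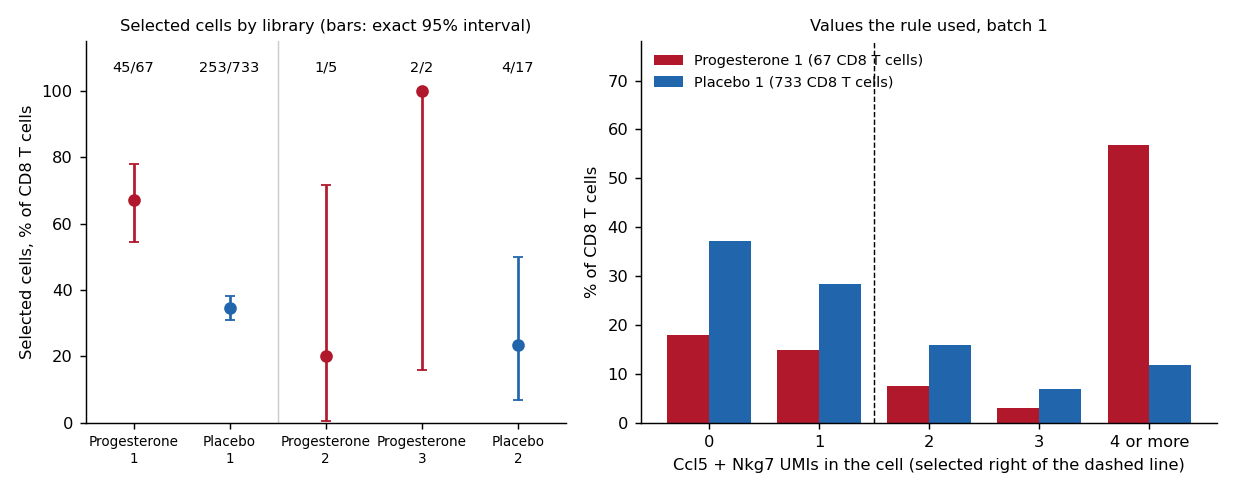
Left, the share of CD8 T cells that were selected in each library, with exact 95% intervals and the cell counts above; the progesterone libraries are red and the placebo libraries blue, with batch 1 left of the grey line. Right, CD8 T cells of batch 1 by their summed Ccl5 and Nkg7 UMIs; 38 of 67 cells in Progesterone 1 held 4 or more, against 87 of 733 in Placebo 1.

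The libraries of batch 1 differed in their whole make-up. Tumour epithelial cells, by keratin and Epcam transcripts, numbered 208 of 2241 barcodes in Progesterone 1 and 83 of 4940 barcodes in Placebo 1, against 3523 to 4048 in each library of batch 2. The CD3 condition was passed by 410 barcodes in Progesterone 1 and 4136 in Placebo 1, while macrophages numbered 218 in Progesterone 1 and 10 in Placebo 1. Median UMIs per selected cell were close, at 11757 in Progesterone 1 and 10805 in Placebo 1, but the summed UMIs behind the levels were 553550 in Progesterone 1 and 2962869 in Placebo 1, so that 3 UMIs, the smallest count taken as a floor, stood for 5.42 CPM, the count scaled to 1000000 UMIs, in Progesterone 1 and 1.01 CPM in Placebo 1. Between pairs of libraries 2 to 12 barcodes were shared, and 3 of these belonged to selected cells. The part of the make-up of the libraries in the differences below was not tested.

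Counted on all UMIs of a cell, the label markers were found in most selected cells of Progesterone 1 and in few of Placebo 1. At least 1 of the remaining label markers Gzmk, Tbx21 and Klrc1 was found in 73.3% of cells in Progesterone 1 (33 of 45) and in 21.3% in Placebo 1 (54 of 253). Ccl5 was found in 62.2% of cells in Progesterone 1 and 20.2% in Placebo 1, so 202 of the 253 cells of Placebo 1 entered through Nkg7 alone. Ccr7 was found in 24.4% of cells in Progesterone 1 (11 of 45) and 86.2% in Placebo 1 (218 of 253). Most selected cells of Placebo 1 thus carried this receptor gene of naive and central memory cells, and they are called here Ccl5/Nkg7-positive CD8 T cells.

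In Placebo 1 Lef1 and the share of cells with a label marker were close on either side of the threshold. Ly6c2 was higher in cells with 2 and with 3 UMIs than in those with 1. Cd44 was higher in cells with 2 UMIs but lower in those with 3. The 208 CD8 T cells of that library with 1 UMI of Ccl5 and Nkg7, just outside, held Lef1 at 2319 CPM, and 4.81% of them had Gzmk, Tbx21 or Klrc1. The 116 cells with 2 UMIs, just inside, held Lef1 at 2317 CPM, and 6.90% had any of the same genes. Ly6c2 stood at 131 CPM in those just inside and 62.1 CPM in those just outside, and Cd44 at 60.1 CPM inside and 33.7 CPM outside. The 50 cells with 3 UMIs held Ly6c2 at 105 CPM and Cd44 at 7.09 CPM, the latter on 4 UMIs. The 87 cells with 4 or more UMIs held Lef1 at 1460 CPM, and 50.6% had any of them. In Progesterone 1 the 10 cells with 1 UMI and the 5 cells with 2 UMIs had none of the genes, while 86.8% of the 38 cells with 4 or more had at least 1. The label markers were thus found most often in cells with 4 or more UMIs of the selection pair, in both libraries. Those cells still differed in Ccr7, found in 18.4% of them in Progesterone 1 and 77.0% in Placebo 1.

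**Figure D2:**
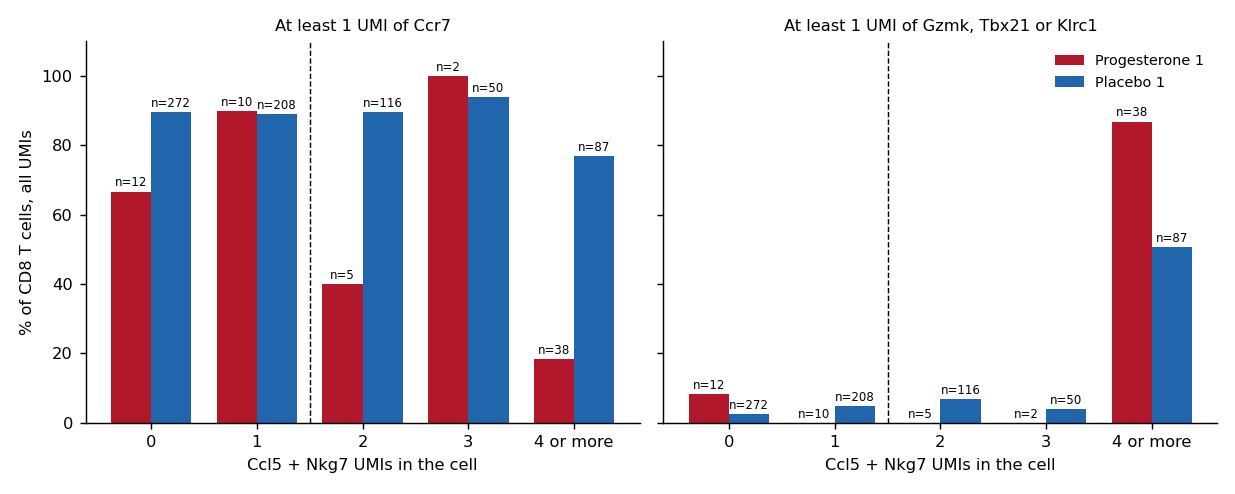
CD8 T cells of batch 1 in bins of summed Ccl5 and Nkg7 UMIs, with the percentage of each bin that held Ccr7 (left) and Gzmk, Tbx21 or Klrc1 (right), Progesterone 1 in red and Placebo 1 in blue. In Placebo 1 the bins of 2 and 3 UMIs, right of the dashed threshold, have shares close to those of 0 and 1, and in both libraries the label markers are most frequent in the bin of 4 or more.

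Free RNA in the droplets can place a UMI in a cell that does not make the transcript, so B cells served as the background. With every cell reduced to 1500 UMIs drawn at random, Gzmk was found in 13.3% of selected cells in Progesterone 1 and 1.19% in Placebo 1, and in no B cell of either library. Tbx21 was found in 22.2% of selected cells in Progesterone 1 and 5.93% in Placebo 1, where B cells gave 2.60% in Progesterone 1 and 0.794% in Placebo 1. Klrc1 stood at 15.6% in Progesterone 1 and 1.58% in Placebo 1, with none in B cells. At full depth the B cells held a median of 12106.5 UMIs in Progesterone 1 and 8978.5 in Placebo 1, and Gzmk was then found in 37.8% of selected cells in Progesterone 1 and 6.32% in Placebo 1. B cell shares are given at 1500 UMIs only. The full-depth shares of label markers, here and above, thus carry no background of the same depth. Ccr7 and Cd44 are made by B cells themselves, so their B cell shares are no background.

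**Figure D3:**
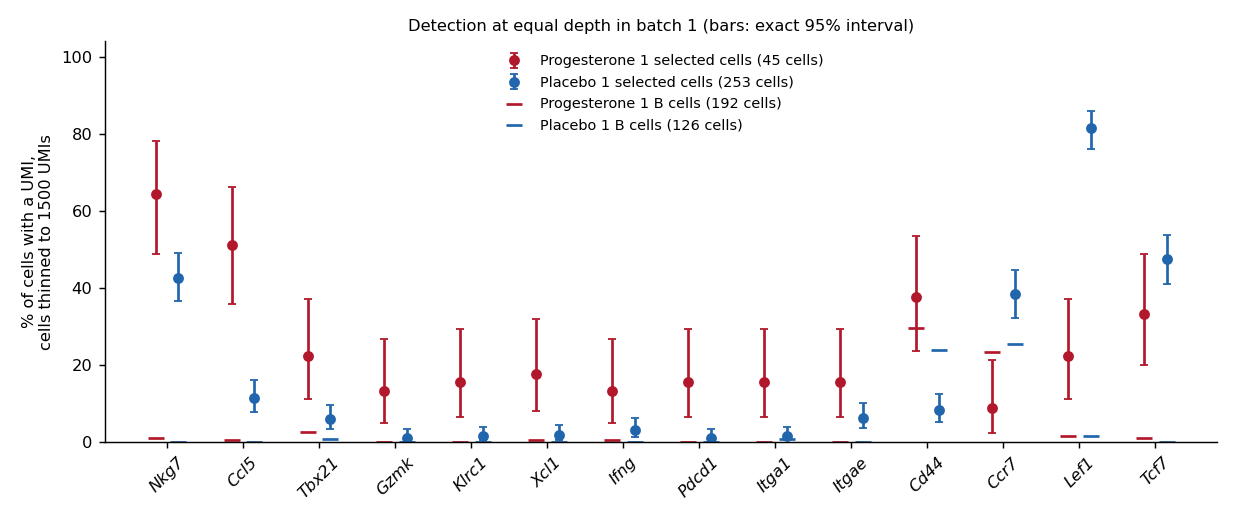
Percentage of cells with at least 1 UMI after every cell was reduced to 1500 UMIs, for selected cells (points with exact 95% intervals) and B cells (dashes), Progesterone 1 in red and Placebo 1 in blue. Gzmk, Klrc1, Xcl1, Pdcd1 and Itga1 lie higher in selected cells of Progesterone 1, and Lef1 and Ccr7 lie higher in those of Placebo 1.

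Levels were compared gene by gene on UMIs summed over the selected cells of each batch 1 library, as ratios of CPM with exact conditional binomial intervals. A gene was called past 2-fold when its ratio was at least 2 in either direction and its interval did not reach 1. Of 8440 genes with at least 20 UMIs over both libraries, 781 (9.25%) were higher in Progesterone 1 and 380 (4.5%) were lower, around a median log2 ratio of 0.10 over all these genes. Scaling by TMM, which assumes that most genes do not differ, shifted every log2 ratio by -0.21 and gave 531 higher and 623 lower, so the calls that were higher made up 67.3% without it and 46.0% with it. In the cells with at least 4 UMIs of Ccl5 and Nkg7, 38 in Progesterone 1 and 87 in Placebo 1, 523 of 6936 genes (7.54%) were past 2-fold higher and 338 (4.87%) lower. In the cells with a Ccl5 UMI, 28 in Progesterone 1 and 51 in Placebo 1, 410 of 5665 genes (7.24%) were past 2-fold higher and 339 (5.98%) lower.

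Ccl5 and Nkg7, which chose the cells, stood at 2235 and 766 CPM in Progesterone 1 and at 376 and 344 CPM in Placebo 1. Gzmk, a granzyme of memory-like CD8 T cells, stood at 56.0 CPM in Progesterone 1 and 10.1 CPM in Placebo 1, a ratio of 5.53 (interval 3.24 to 9.46). Klrc1, which encodes the inhibitory receptor NKG2A, stood at 159 CPM in Progesterone 1 and 13.8 CPM in Placebo 1, a ratio of 11.5 (7.84 to 17.1). Tbx21 stood at 202 CPM in Progesterone 1 and 64.1 CPM in Placebo 1, a ratio of 3.16 (2.48 to 4.01). All 3 remaining label markers were past 2-fold higher in Progesterone 1. On GRCm38 (GENCODE) the protein-coding genes lie at chr11:83525778-83530518 (Ccl5, minus strand), chr7:43437073-43438249 (Nkg7, plus), chr13:113171608-113225908 (Gzmk, minus), chr6:129666015-129678973 (Klrc1, minus) and chr11:97098071-97115331 (Tbx21, minus). The annotations differ for Gzmk, since the window shown above, placed by the RefSeq start, lies inside this GENCODE span.

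Genes of naive and central memory cells were lower in Progesterone 1. Of 10 such genes with enough UMIs, 6 were past 2-fold lower and none higher, with a median log2 ratio of -1.59 against 0.10 over all genes. Lef1, a transcription factor of naive T cells, stood at 452 CPM in Progesterone 1 and 1941 CPM in Placebo 1, a log2 ratio of -2.10. Satb1, a chromatin organiser of T cells, stood at 782 CPM in Progesterone 1 and 2335 CPM in Placebo 1. Ccr7 stood at 114 CPM in Progesterone 1 and 351 CPM in Placebo 1. The lymph node exit receptor S1pr1 had a log2 ratio of -1.60, Dapl1 one of -3.85 and Igfbp4 one of -2.97. Tcf7, which naive and memory cells share, was within 2-fold, at 361 CPM in Progesterone 1 and 445 CPM in Placebo 1, and so were Il7r, Klf2 and Bcl2. Of the 12 genes farthest below 2-fold, Adk, which encodes adenosine kinase, stood at 123 CPM in Progesterone 1 and 968 CPM in Placebo 1. The scaffold gene Magi3, at 92.1 CPM in Progesterone 1 and 491 CPM in Placebo 1, and the nucleic acid transporter gene Sidt1, at 257 CPM in Progesterone 1 and 1002 CPM in Placebo 1, were the most abundant others among them beside Lef1. In CD4 T cells Lef1 was lower as well, at 1401 CPM in Progesterone 1 and 2825 CPM in Placebo 1. There S1pr1 stood at 338 CPM in Progesterone 1 and 566 CPM in Placebo 1, while Bcl2 was higher, at 1374 CPM and 590 CPM.

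Memory genes were higher in Progesterone 1, with 8 of 9 past 2-fold and a median log2 ratio of 1.32. Fewer of them were past 2-fold in narrower selections, with 2 of 9 (median 0.70) in cells with at least 4 UMIs of Ccl5 and Nkg7, 1 of 9 (median 0.19) in cells with Ccl5 and 3 of 9 (median 0.73) in cells without Ccr7. Itgb1, the integrin beta 1 chain, stood at 916 CPM in Progesterone 1 and 236 CPM in Placebo 1, a ratio of 3.88 (3.46 to 4.36). Cd44, the hyaluronan receptor that marks antigen-experienced T cells, stood at 349 CPM in Progesterone 1 and 120 CPM in Placebo 1. Ly6c2, a surface antigen of memory CD8 T cells in mice, stood at 338 CPM in Progesterone 1 and 157 CPM in Placebo 1. Eomes, with a log2 ratio of 1.06, and Il18r1, a chain of the interleukin 18 receptor with 1.47, were also past 2-fold, while the interleukin 15 receptor chain Il2rb was within it at 145 CPM in Progesterone 1 and 128 CPM in Placebo 1. Cd44 was likewise higher in CD4 T cells of Progesterone 1, at 652 CPM, than in those of Placebo 1, at 122 CPM.

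The cytotoxic granule genes did not share a direction. Of 11 genes, 4 were past 2-fold higher and 2 lower, with a median log2 ratio of 0.68. The protease gene Ctsw stood at 406 CPM in Progesterone 1 and 116 CPM in Placebo 1, and Fasl, the death ligand, at 65.0 CPM in Progesterone 1 and 17.6 CPM in Placebo 1. Gzma stood at 14.5 CPM in Progesterone 1 and 118 CPM in Placebo 1, but its UMIs came from 3 cells in Progesterone 1 and 7 in Placebo 1, and 1 cell gave 136 of the 349 UMIs of Placebo 1. Gzmb, at 28.9 CPM in Progesterone 1 and 87.8 CPM in Placebo 1, likewise came from 4 cells in Progesterone 1 and 10 in Placebo 1. Prf1, which encodes perforin, had 9 UMIs in Progesterone 1 and 42 in Placebo 1, a ratio of 1.15 (0.49 to 2.39). Gzmc was the gene farthest above 2-fold by its interval, with 206 UMIs in Progesterone 1 and 10 in Placebo 1, but 1 cell held 205 of the 206. The main killing genes of the granule were therefore sparse in both libraries, and the largest granzyme differences rested on a few cells.

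Of 8 NK cell receptor genes found on T cells, 4 were past 2-fold higher and none lower, with a median log2 ratio of 0.99. In cells with at least 4 UMIs of Ccl5 and Nkg7 there were 3 higher and 2 lower, Klre1 and Klra7, with a median of 0.03, and TMM scaling over all selected cells gave 4 higher and 1 lower. Besides Klrc1 these were Klrk1, which encodes the activating receptor NKG2D, at 143 CPM in Progesterone 1 and 25.7 CPM in Placebo 1, the receptor gene Cd160 at 34.3 CPM in Progesterone 1 and 8.44 CPM in Placebo 1, and Fcer1g. For Fcer1g, 1 cell held 29 of the 39 UMIs of Progesterone 1, and in cells with at least 4 UMIs of Ccl5 and Nkg7 its ratio was 1.19 (0.783 to 1.78). Klra7 had no UMI in Progesterone 1 and 20 in Placebo 1, and was not called over all selected cells. Klrd1, which encodes CD94, the partner of NKG2A, did not differ past 2-fold, at 103 CPM in Progesterone 1 and 107 CPM in Placebo 1. Ncr1, a marker of NK cells, had no UMI in Progesterone 1 and 14 in Placebo 1.

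Secreted mediators were higher in Progesterone 1, with 5 of 6 genes past 2-fold and a median log2 ratio of 2.73. Ifng stood at 166 CPM in Progesterone 1 and 25.0 CPM in Placebo 1, a ratio of 6.65 (4.85 to 9.16), with UMIs in 20 of 45 cells of Progesterone 1 and 21 of 253 cells of Placebo 1. The chemokine gene Ccl4 stood at 215 CPM in Progesterone 1 and 27.7 CPM in Placebo 1. Xcl1, a chemokine that attracts cross-presenting dendritic cells, stood at 634 CPM in Progesterone 1 and 45.9 CPM in Placebo 1. A single cell held 230 of the 351 Xcl1 UMIs of Progesterone 1, and 1 cell held 66 of the 136 of Placebo 1. With the highest cell count of every gene taken out of each library, the log2 ratio of Xcl1 was 3.35, against 3.79 with all counts. This removal also lowers the totals behind CPM, so 3.35 is not the ratio without 1 cell. Tnf was within 2-fold, at 63.2 CPM in Progesterone 1 and 39.1 CPM in Placebo 1.

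Genes of residency in tissue were mostly higher in Progesterone 1, while those of homing were divided. Of 9 chemokine receptor and homing genes, 4 were past 2-fold higher and 1, Ccr7, lower, with a median log2 ratio of 0.17 that TMM scaling turned to -0.05. Of 9 residency genes, 7 were past 2-fold higher and none lower, with a median log2 ratio of 2.29. Itga1, the alpha chain of a collagen-binding integrin, stood at 148 CPM in Progesterone 1 and 11.8 CPM in Placebo 1, a ratio of 12.5 (8.35 to 19.2). Itgae, which encodes CD103, the chain that binds E-cadherin, stood at 208 CPM in Progesterone 1 and 42.5 CPM in Placebo 1, and Cxcr6, a chemokine receptor of resident cells on both lists, at 135 CPM in Progesterone 1 and 18.9 CPM in Placebo 1. Cd69, which holds T cells in tissue and also marks recent activation, was within 2-fold, at 450 CPM in Progesterone 1 and 384 CPM in Placebo 1. Rgs1, on the residency list, stood at 555 CPM in selected cells of Progesterone 1 and 137 CPM in those of Placebo 1. In CD4 T cells Rgs1 stood at 469 CPM in Progesterone 1 and 112 CPM in Placebo 1.

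Checkpoint genes were higher in Progesterone 1 in 8 of 10 cases past 2-fold, with none lower and a median log2 ratio of 2.69. Pdcd1, which encodes PD-1, stood at 77.7 CPM in Progesterone 1 and 9.79 CPM in Placebo 1, a ratio of 7.94 (4.84 to 13.2). Ctla4, an inhibitory competitor of CD28, stood at 332 CPM in Progesterone 1 and 63.5 CPM in Placebo 1. Cd101, Cd38, Tigit and Lag3 had log2 ratios of 3.82, 3.88, 3.14 and 3.05 on low counts, with 17 to 37 UMIs in Progesterone 1 and 8 to 14 UMIs in Placebo 1. Tox, a factor of chronically stimulated CD8 T cells, was just within 2-fold at 1210 CPM in Progesterone 1 and 619 CPM in Placebo 1, and 1 cell held 198 of its 670 UMIs in Progesterone 1. Havcr2, which encodes TIM-3, had too few UMIs to compare, 5 in Progesterone 1 and 3 in Placebo 1. CD4 T cells of the same libraries, outside the selection, held Pdcd1 at 60.1 CPM in Progesterone 1 and 4.71 CPM in Placebo 1. Their Ctla4 stood at 308 CPM in Progesterone 1 and 111 CPM in Placebo 1, and their Tox at 1293 CPM and 1315 CPM. The differences in Pdcd1 and Ctla4 were thus not particular to the selected cells.

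Among 18 transcription factors, 8 were past 2-fold higher and none lower, with a median log2 ratio of 0.78. Zeb2, which acts with T-bet in effector cells, stood at 152 CPM in Progesterone 1 and 10.8 CPM in Placebo 1, a ratio of 14.1 (9.25 to 21.8). Its UMIs came from 13 cells in Progesterone 1 and 11 in Placebo 1. Macrophages held Zeb2 at 1961 CPM in Progesterone 1 and 1842 CPM in Placebo 1, and the part of their RNA was not tested. Bhlhe40, a factor of resident and cytokine-producing T cells, stood at 338 CPM in Progesterone 1 and 42.5 CPM in Placebo 1. Ikzf2, which encodes Helios, stood at 596 CPM in Progesterone 1 and 125 CPM in Placebo 1. A single cell held 98 of its 330 UMIs in Progesterone 1 and 90 of its 370 in Placebo 1. Runx3 was within 2-fold at 546 CPM in Progesterone 1 and 385 CPM in Placebo 1. Bach2, a repressor that preserves naive and memory cells, was just within 2-fold at 334 CPM in Progesterone 1 and 656 CPM in Placebo 1, and was called lower with TMM scaling, where 6 of the 18 were higher and 2 lower. CD4 T cells held Zeb2 at 93.1 CPM in Progesterone 1 and 9.03 CPM in Placebo 1. Their Ikzf2 stood at 258 CPM in Progesterone 1 and 49.7 CPM in Placebo 1, so neither difference was particular to the selected cells.

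The T cell receptor signalling genes lay close to the median of all genes, with 1 of 16, Thy1, past 2-fold higher and a median log2 ratio of 0.23. Lck, the kinase that starts the signal, stood at 334 CPM in Progesterone 1 and 234 CPM in Placebo 1. With TMM scaling none of the 16 was past 2-fold.

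Cell cycle genes were higher in 6 of 9 cases past 2-fold, with a median log2 ratio of 1.95. At least 1 UMI of Mki67, Top2a or Birc5 was found in 33.3% of cells in Progesterone 1 (15 of 45) and 12.3% in Placebo 1 (31 of 253). The levels rested on few cells, since 1 cell held 28 of the 34 Mki67 UMIs and 47 of the 81 Top2a UMIs of Progesterone 1. Stmn1, a tubulin regulator of dividing cells, had a log2 ratio of 1.95 with all counts. It was 0.73 with the highest cell count of every gene taken out of each library, as for Xcl1.

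The heat shock genes Hspa1a and Hspa1b, near-identical copies whose reads may not all be told apart, were among the genes farthest above 2-fold. Their counts still differed in some classes, with Hspa1b at 870 CPM and Hspa1a at 13.9 CPM in tumour epithelial cells of Progesterone 1. Hspa1b stood at 882 CPM in Progesterone 1 and 20.3 CPM in Placebo 1, a ratio of 43.5 (33.2 to 57.9), and was found in 26 of 45 cells of Progesterone 1 and 18 of 253 cells of Placebo 1. The same gene stood at 746 CPM in the 8 naive CD8 T cells of Progesterone 1, as defined further on, and 7.37 CPM in those of Placebo 1, and at 247 CPM in B cells of Progesterone 1 and 7.07 CPM in those of Placebo 1. The difference was thus present in other lymphocytes of the same libraries, while NK cells held 295 CPM in Progesterone 1 and 244 CPM in Placebo 1. Over the whole list of immediate early and heat shock genes, 5 of 19 were past 2-fold higher and the median log2 ratio was 0.42, with Fos, a marker of recent stimulation, at 500 CPM in Progesterone 1 and 493 CPM in Placebo 1.

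Interferon-stimulated genes had a median log2 ratio of 0.57, with 2 of 11, Ly6a and Xaf1, past 2-fold higher. Of 11 genes that steroid receptors are known to induce, 3 were past 2-fold higher, namely Mt1, Zbtb16 and Ddit4, and the median log2 ratio was 0.28. Mt1 stood at 32.5 CPM in selected cells of Progesterone 1 and 3.71 CPM in those of Placebo 1, and was likewise higher in other lymphocytes, at 105 CPM in CD4 T cells of Progesterone 1 and 1.16 CPM in those of Placebo 1, and at 52.7 CPM in B cells of Progesterone 1 and 2.65 CPM in those of Placebo 1. In Progesterone 1 macrophages held Mt1 at 2026 CPM and tumour epithelial cells at 3554 CPM, and the part of their RNA in the lymphocyte values was not tested. Zbtb16 came from 1 cell in Progesterone 1, and Fkbp5 and Tsc22d3, widely used readouts of glucocorticoid and progesterone receptor activity, were within 2-fold, Fkbp5 at 28.9 CPM in Progesterone 1 and 46.6 CPM in Placebo 1 and Tsc22d3 at 161 CPM in Progesterone 1 and 210 CPM in Placebo 1. Pgr, the progesterone receptor gene, had no UMI in the 45 cells of Progesterone 1 and 1 UMI in the 253 cells of Placebo 1. The glucocorticoid receptor gene Nr3c1 stood at 470 CPM in Progesterone 1 and 308 CPM in Placebo 1. Among 4 steroid receptor genes with enough UMIs, Nr3c2 was past 2-fold higher and Esr1, at no UMI in Progesterone 1 and 27 in Placebo 1, was called lower, where the floor of 3 UMIs gives a log2 ratio of -0.75. Of 12 glycolysis and hypoxia genes, 3 were past 2-fold higher, with a median log2 ratio of 0.65, and TMM scaling left 1.

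**Figure D4:**
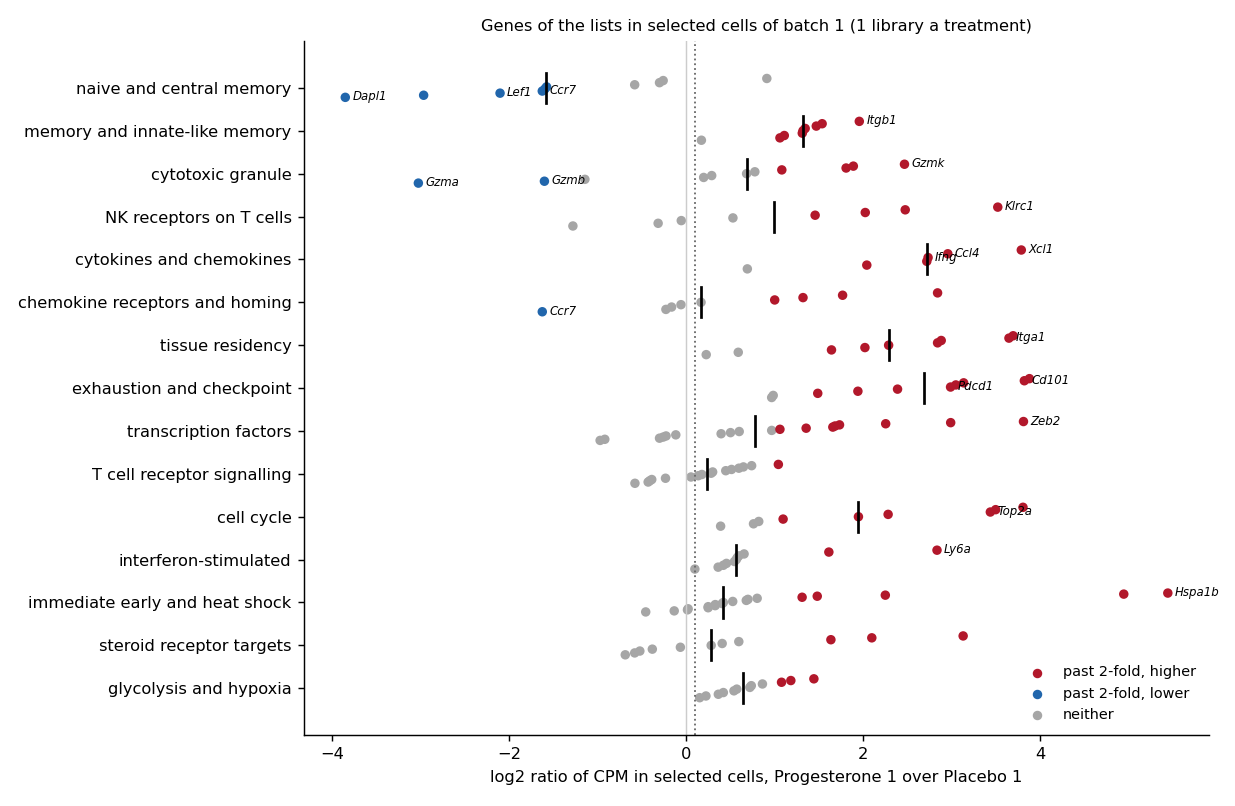
log2 ratio of CPM, Progesterone 1 over Placebo 1, for each list gene with at least 20 UMIs, with the list median as a black bar and the median of all 8440 genes (0.10) dotted. Residency, checkpoint and cytokine genes lie to the right, naive and central memory genes to the left, and T cell receptor signalling genes near the dotted line.

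Transcripts of other cell types also differed between the libraries. Over 13 myeloid genes the summed level was 415.5 CPM in Progesterone 1 and 75.3 CPM in Placebo 1, and of the 5 with enough UMIs, 3 (Cd74, Apoe and S100a9) were past 2-fold higher. Cd74 is not particular to myeloid cells. B cells held it at 7100 CPM in Progesterone 1 and 8680 CPM in Placebo 1, and macrophages at 10084 CPM and 13543 CPM. The macrophage gene C1qa had 9 UMIs in Progesterone 1 and none in Placebo 1, Lyz2 had 4 in Progesterone 1 and 1 in Placebo 1, and Adgre1 had none in either. At least 2 UMIs over 6 myeloid genes were found in 9 of 45 cells in Progesterone 1 and 0 of 253 in Placebo 1, where the exact upper bound is 1.45%. Without those 9 cells, 780 genes were past 2-fold higher and 375 lower. The myeloid difference stayed, with 3 of 5 myeloid genes past 2-fold higher. Their median log2 ratio was then 3.73, against 3.88 over all selected cells. The tumour genes summed to 61.4 CPM in Progesterone 1 and 14.5 CPM in Placebo 1, with Krt8 past 2-fold higher, the B cell genes to 10.8 CPM in Progesterone 1 and 3.71 CPM in Placebo 1, and no haemoglobin UMI was found. Il2ra and Gata3, also used by CD4 T cells, were the 2 genes with enough UMIs on the list of other T and NK identities and both were past 2-fold higher, with Foxp3 and Cd4 at 0 by selection. Doublets were not called. Leaving out those 9 cells left the myeloid difference in place, so it cannot show the part of doublets or free RNA. That part was not tested.

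Since Ccr7 separated the selected cells of the pair of libraries, the comparison was repeated within the cells that had no UMI of it, 34 in Progesterone 1 and 35 in Placebo 1. This choice was made after the values had been seen. Of 5138 genes with at least 20 UMIs in these cells, 355 (6.91%) were past 2-fold higher and 220 (4.28%) lower, and the median log2 ratio over all of them was 0.03. Tbx21 then stood at 223 CPM in Progesterone 1 and 198 CPM in Placebo 1, a ratio of 1.13 (0.823 to 1.55). Gzmk stood at 70.2 CPM in Progesterone 1 and 46.2 CPM in Placebo 1, a ratio of 1.52 whose interval (0.811 to 2.92) still takes in 2-fold. Cd44 stood at 384 CPM in Progesterone 1 and 459.7 CPM in Placebo 1, a ratio of 0.835 (0.668 to 1.04). Eomes stood at 153 CPM in Progesterone 1 and 154 CPM in Placebo 1. Ifng stood at 183 CPM in Progesterone 1 and 123 CPM in Placebo 1, a ratio of 1.49 (1.02 to 2.18), and Ccl4 at 293 CPM in Progesterone 1 and 179.8 CPM in Placebo 1, a ratio of 1.63 (1.20 to 2.23). These 6 genes, past 2-fold over all selected cells, were thus not past it once cells with Ccr7 were set aside.

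The cells without Ccr7 were still unlike between the libraries. Of 8 naive and central memory genes, 4 were past 2-fold lower in Progesterone 1, with a median log2 ratio of -0.77. Satb1 stood at 584 CPM in Progesterone 1 and 1710 CPM in Placebo 1. Ccl5 was found in 24 of the 34 cells of Progesterone 1 and 18 of the 35 cells of Placebo 1. The part of this in the differences below was not tested. Other groups also held genes past 2-fold in those cells. Checkpoint genes were past 2-fold higher in 7 of 9 cases with a median log2 ratio of 1.80, residency genes in 6 of 9 with 1.21, and cytokine genes in 2 of 5 with 0.71. Klrc1 had 81 UMIs in Progesterone 1 and 3 UMIs in Placebo 1, and Zeb2 had 77 UMIs in Progesterone 1 and 7 in Placebo 1. Itgae stood at 238 CPM in Progesterone 1 and 59.1 CPM in Placebo 1, a ratio of 4.03 (2.54 to 6.67). Lef1 was lower by the same measure, at 303 CPM in Progesterone 1 and 1335 CPM in Placebo 1. Gzmb was also past 2-fold lower, with 16 UMIs in Progesterone 1 and 170 in Placebo 1. It rested on few cells, since 1 cell held 124 of the 260 Gzmb UMIs over all selected cells of Placebo 1. Cell cycle genes had 3 of 8 higher and none lower, with a median log2 ratio of 0.76. In the cells with at least 4 UMIs of Ccl5 and Nkg7, residency genes were past 2-fold higher in 7 of 9 cases, checkpoint genes in 6 of 10 and cytokine genes in 4 of 6, while homing genes had 1 of 8 higher and 1 lower, transcription factors 4 of 18 higher and 1 lower, and granule genes 3 of 11 higher and 3 lower.

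**Figure D5:**
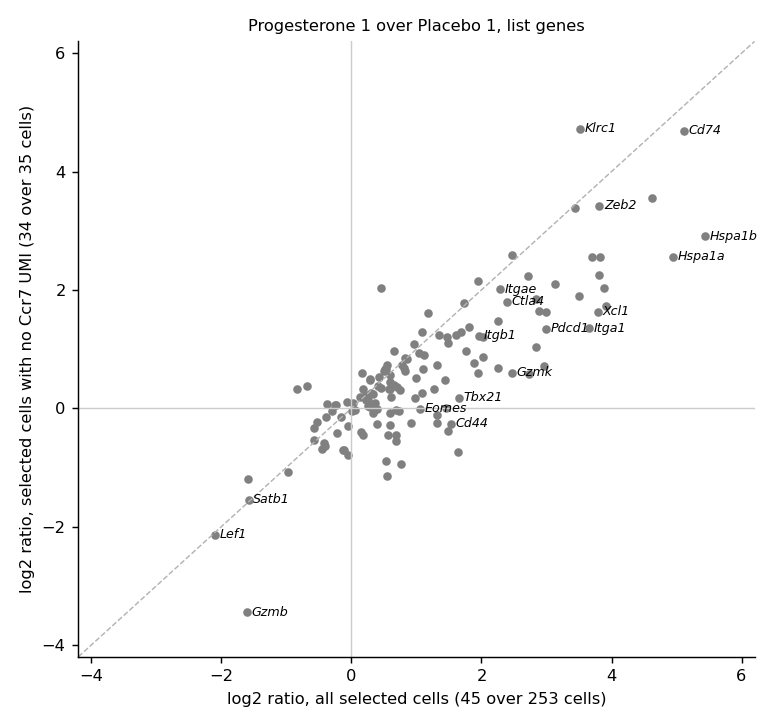
log2 ratio, Progesterone 1 over Placebo 1, of the 144 list genes with at least 20 UMIs in each comparison, over all selected cells (horizontal) and over those without a Ccr7 UMI (vertical); the dashed line marks equal values. Tbx21, Eomes, Cd44 and Gzmk lie between -0.26 and 0.60 on the vertical axis, while Klrc1 and Zeb2 lie above 3.

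Within each library the cells without Ccr7 carried more Ccl5 than those with it. Ccl5 stood at 2916 CPM in cells without and 478 CPM in cells with Ccr7 in Progesterone 1, and at 1569 CPM in cells without and 195 CPM in cells with it in Placebo 1. Tbx21 stood at 223 CPM in cells without and 149 CPM in cells with Ccr7 in Progesterone 1, where the interval of the ratio (0.941 to 2.49) reached 1, and at 198 CPM in cells without and 43.9 CPM in cells with it in Placebo 1. Klrc1 stood at 203 CPM in cells without and 45.2 CPM in cells with Ccr7 in Progesterone 1, and at 7.70 CPM in cells without and 14.8 CPM in cells with it in Placebo 1, where it had 3 UMIs without and 38 with Ccr7 and the interval of the ratio (0.103 to 1.64) reached 1.

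Against naive CD8 T cells, defined as CD8 T cells with no Ccl5 or Nkg7 UMI and at least 1 UMI of Ccr7, the selected cells are described without a test, and only 8 such cells were found in Progesterone 1, against 244 in Placebo 1. After the selection genes themselves, the genes that ranked highest by the lower of their ratios in the pair of libraries were Ctla2a, Itgb1, Cd44 and Ly6c2. Itgb1 stood at 916 CPM in selected cells of Progesterone 1, whose naive cells held 1 UMI, under the floor of 3 UMIs, and at 236 CPM in selected cells and 45.5 CPM in naive cells of Placebo 1. Ctla2a, which encodes a cysteine protease inhibitor, stood at 381 CPM in selected cells of Progesterone 1, whose naive cells again held 1 UMI, and at 160 CPM in selected cells and 13.9 CPM in naive cells of Placebo 1. Genes of the cytoskeleton and of migration, Ahnak, S100a10, Vim and Crip1, followed in the same 15 genes. S1pr1 and the transcription factor gene Foxo3 were among the 10 genes lowest against naive cells, with S1pr1 at 95.7 CPM in selected cells and 233 CPM in naive cells of Progesterone 1 and at 290 CPM in selected cells and 450.0 CPM in naive cells of Placebo 1. NK cells, the other cytotoxic lymphocytes, held Ccl5 at 2486 CPM and Nkg7 at 997 CPM in Progesterone 1, and at 842 CPM and 1028 CPM in Placebo 1.

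Variation among the selected cells was described within each library, as the variance of a gene over cells relative to that of Poisson counts at the same depth, for genes with at least 50 UMIs. Ccl5 was the protein-coding gene with the highest value in each library, 152 in Progesterone 1 and 57.9 in Placebo 1, so its transcripts were spread unevenly over the cells. The cell richest in Ccl5 held 310 of the 1237 UMIs of Progesterone 1 and 116 of the 1114 UMIs of Placebo 1. At 1500 UMIs per cell the median number of genes found was 885 in Progesterone 1 and 848 in Placebo 1.

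The 7 selected cells of batch 2 are too few for a comparison and are given by count. The cell of Progesterone 2 held 2 UMIs of Nkg7, none of Ccl5 and 9 of Lef1. Of the 2 cells of Progesterone 3, 1 held 2 UMIs of Ccl5 and 6 of Pdcd1 and the other 5 UMIs of Nkg7. Of the 4 cells of Placebo 2, 2 held 14 and 12 UMIs of Ccl5 with Gzmk in each, and 1 of these also held 4 UMIs of Tbx21 and 3 of Klrc1. The cells with the fullest set of label markers in batch 2 were therefore in the placebo library. Ccl5 stood lower in the summed cells of Progesterone 2 and Progesterone 3 than in Placebo 2, opposite to batch 1. Since Ccl5 helped to choose these few cells, this is a description and no difference between treatments is drawn from it.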

How the data were processed

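Raw UMI counts per gene and cell were deposited by the authors as 1 matrix per library for 24860 gene symbols, from 10x Genomics 3′ libraries (kit version 3.1), per the labels' protocols. Cell Ranger 7.0.0 and build mm10 are named in the submitters' processing notes, while the file headers name Cell Ranger 8.0.1; aligner settings and annotation are not given in the sources used here. Deposited barcodes start at 500 UMIs, and mitochondrial genes are not among the symbols.

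The selection was applied to the raw counts with Python 3.11.15, numpy 2.4.6, pandas 2.3.3 and scipy 1.17.1. UMIs were summed over selected cells per library and divided by their total to give CPM; ratios carry exact conditional binomial 95% intervals, and a library at 0 was set to the floor of 3 UMIs in log2 ratios. Shares of cells carry exact Clopper-Pearson intervals and were compared by an exact permutation within batches. Intervals and floors cover counting error only. The ratio script was tested before use on counts simulated as Poisson draws. These lack the variation among cells described above, so the test does not cover genes such as Ccl5. Figures were drawn with matplotlib 3.10.9.

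An edgeR quasi-likelihood test had been planned on libraries with at least 10 selected cells, but only 2 libraries, 1 a treatment, had that many, so no fit was made; edgeR 4.0.16 in R 4.3.3 gave TMM factors only. No doublet caller was run. Genes are named when they belong to 1 of 21 lists (247 genes, of which 11 are not among the symbols used here) and have at least 20 UMIs, when they are among the 12 farthest above or below 2-fold with at least 50 CPM in the higher library, or when they are among the 15 highest and 10 lowest against naive CD8 T cells (at least 100 CPM, 5 CPM added). List genes with fewer UMIs are given as UMIs. A few planned list genes are not reported here and were left out of the list counts, and naive CD8 T cells, planned on a pair of genes, were defined on Ccr7 alone, a change made after the data were seen. The selection and the lists were chosen with earlier results of these data known. Alternatives were a minimum of 3000 UMIs, a tumour share under 0.1%, at least 4 UMIs of Ccl5 and Nkg7, no cells with 2 or more myeloid UMIs, TMM scaling, at least 50 UMIs per gene, cells reduced to 1500 UMIs, means of per-cell CPM, batch 2 alone and each library left out.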

Additional observations from a re-analysis of the deposited data

How the results depend on the processing

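The share of CD8 T cells that were selected, averaged over batches, stayed higher in progesterone libraries under every alternative run, against 34.6 percentage points as reported. The lowest value was 10.5 points, with cells reduced to 1500 UMIs before selection. It then rested on 6 of 13 cells in Progesterone 1 and 6 of 70 in Placebo 1, and batch 2 turned round, since neither progesterone library, with 1 CD8 T cell each, kept a selected cell and Placebo 2 kept 1 of 6. The values with each library left out in turn ran over 14.6 to 54.6 points. Without the batch block, that is unpaired over all 5 libraries, the difference was 33.4 points (exact permutation p = 0.4). The count of 1161 genes past 2-fold in batch 1 was 816 to 1164 under 7 other settings. It was 344 with selected cells reduced to 1500 UMIs, where 3404 genes kept 20 UMIs. Chosen after the data were seen, it was 575 in cells without Ccr7 and 749 in cells with Ccl5, both with fewer cells. It was 1059 with the highest cell count of every gene taken out of each library, also chosen after the data were seen. Called log2 ratios that changed sign did so in batch 2 alone (3 progesterone and 4 placebo cells) for Ctla4 (-1.01), Cd44 (-1.46), Itgb1 (-2.66), Satb1 (0.18), S100a10 (-0.28), Nkg7 (-1.13), Ccl5 (-3.39) and Ctla2a (-1.50). In cells without Ccr7 they were Atf3 (-0.12), Cd44 (-0.26), Tnfrsf9 (-0.38), P2rx7 (-0.73), Eomes (-0.010), Cxcr3 (-0.26), Auts2 (0.048), Cdk6 (-0.72), Crip1 (-0.069) and Ctla2a (-0.20). In cells with Ccl5 they were Cd44 (-0.37) and Nr3c2 (-0.38), and at 1500 UMIs Stmn1 (-0.51). These lists leave out the named genes whose ratios were counted as moved but not reversed. In batch 2 alone, 29 moved and 2 stayed the same. In cells without Ccr7, 95 moved and 72 stayed the same, against 81 and 98 in cells with Ccl5. At 1500 UMIs, 83 moved and 95 stayed the same. The cause was not tested. Of 205 named genes with 20 UMIs, TMM scaling reversed no call, while 37 ratios were counted as moved and 168 as the same. The edgeR test and its alternatives gave no value and were not run: 2 libraries had 10 or more selected cells, and with 3 or more cells there were 3 libraries and no residual degree of freedom beside batch.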
